A study of Mus musculus with 4 samples.

Results

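The T cell receptor alpha locus segments were the variable genes (Trav), the joining genes (Traj) and the constant gene (Trac) of the mouse alpha chain, taken as every gene of the count table whose symbol starts with Trav or Traj or is Trac. They numbered 189 of 53715 genes: 128 Trav, 60 Traj and Trac, all on chromosome 14. They were measured by RNA sequencing in 4 libraries of invariant natural killer T (iNKT) cells from the thymus of C57BL/6 mice aged 6 to 8 weeks. Wild-type (WT) mice gave 2 libraries, and Mettl3fl/flCD4-cre mice, labelled Mettl3KO and here called Mettl3 knockout, gave 2. In the knockout both Mettl3 alleles are floxed and Cre is driven by CD4, so it acts from the stage at which thymocytes express CD4. Cells were sorted into TRIzol as 7AAD- (live), CD1d tetramer+ and TCRβ+. Smart-seq2, which copies whole transcripts without keeping their strand, was used for the libraries. Whether each library stands for its own animal is not stated in the labels; if not, the spread that the p-values rest on may be technical.

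The alpha chain gene is assembled in thymocytes by V(D)J recombination, which joins 1 Trav to 1 Traj and deletes the DNA between them from that allele; the transcript is then spliced to Trac. Joining segments that lie between the chosen Traj and Trac remain in the intron of the primary transcript. Conventional T cells use many Trav and Traj combinations, whereas mouse iNKT cells are defined by a single pairing, Trav11 with Traj18, the Vα14-Jα18 chain, which together with a limited set of beta chains recognises lipids on CD1d. The mouse Trav cluster was duplicated in evolution, so many Trav have copies whose names carry a d or an n. The comparison asked how Trav11 and Traj18 stood among the other segments in each library, and whether segments differed between the genotypes.

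The targeted gene lies in the same region of the chromosome. Mettl3, the catalytic subunit of the m6A methyltransferase (ENSMUSG00000022160.18, chr14:52294841-52305128, GRCm38), ends 122.8 kb before Trav1, the first Trav of the table, and 1915 kb before Trac. The strain in which the floxed allele was made is not given in the sources used here, so an effect of the genotype and one of the sequence linked to that allele cannot be told apart. Mettl3 counts scaled to library size (CPM, with TMM scaling) were 92.2 and 123.6 in the WT libraries, against 78.1 and 91.4 in the knockout; values of a pair are given with replicate 1 first throughout. The log2 fold change, knockout over WT throughout, was -0.35 (standard error, SE, 0.19; edgeR adjusted p = 0.357). Both knockout libraries lay below both WT libraries, and the value did not pass the test. Counts over the whole gene include exons outside the floxed part, so this does not check the labels.

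The sequences of the segments that the results turn on are given first. Both Trav11 copies below are shown as their second exon, which encodes the variable domain. They show how little separates the functional gene from a copy annotated as a pseudogene, and capitals mark the bases that differ. Trav11 is chr14:53519569-53519859 and Trav11n is chr14:53135388-53135678, both on the plus strand of GRCm38 and taken from the GENCODE transcripts.
Trav11: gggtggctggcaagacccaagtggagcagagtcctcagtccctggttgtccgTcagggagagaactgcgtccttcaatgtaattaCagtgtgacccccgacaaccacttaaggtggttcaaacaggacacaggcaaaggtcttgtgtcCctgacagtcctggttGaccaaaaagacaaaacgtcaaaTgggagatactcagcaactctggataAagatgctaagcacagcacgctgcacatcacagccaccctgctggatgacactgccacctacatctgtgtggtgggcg
Trav11n: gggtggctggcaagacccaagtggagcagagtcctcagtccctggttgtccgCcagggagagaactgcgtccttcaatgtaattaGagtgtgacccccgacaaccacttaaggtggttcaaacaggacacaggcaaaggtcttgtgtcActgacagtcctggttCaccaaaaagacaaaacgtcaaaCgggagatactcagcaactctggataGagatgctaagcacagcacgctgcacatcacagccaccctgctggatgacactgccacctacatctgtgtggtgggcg
The joining segments below are shown because Traj18 belongs to the invariant chain, Traj17 and Traj19 are its counted neighbours, and Traj9 had the most counts. Capitals mark the codons of the motif FGXG (phenylalanine, glycine, any residue, glycine), which is the hallmark of a functional joining segment. It was sought by translation of each segment in every reading frame, and tryptophan was also accepted in its first place. Traj19 has no such motif. They lie at chr14:54200386-54200446 (Traj19), chr14:54200777-54200842 (Traj18), chr14:54201775-54201837 (Traj17) and chr14:54209393-54209450 (Traj9).
Traj19: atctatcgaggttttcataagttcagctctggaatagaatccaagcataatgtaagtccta
Traj18: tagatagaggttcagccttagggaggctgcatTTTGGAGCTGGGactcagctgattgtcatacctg
Traj17: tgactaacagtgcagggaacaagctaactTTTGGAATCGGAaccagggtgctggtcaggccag
Traj9: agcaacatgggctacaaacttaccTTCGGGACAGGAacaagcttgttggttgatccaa

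Most segments were at or near 0. Of the 189 genes, 58 had no count in any library (50 Trav and 8 Traj), and 122 had fewer than 10 counts over the 4 libraries. The library totals were 24374587 to 28316016 counts, so 3 counts, the number that a count of 0 allows, corresponded to 0.107 to 0.120 CPM. Only 34 of the 189 genes (10 Trav, 23 Traj and Trac) passed the filter on low counts and were tested, and 7 of these passed through 1 genotype alone (3 through WT, 4 through the knockout). These 7 had to differ to be tested, so medians and shares over the tested genes are descriptions and support nothing. In all, 0 of the 34 were higher and 1, Trac, was lower in the knockout (edgeR quasi-likelihood test, Benjamini-Hochberg adjusted p under 0.05). Over all 14185 genes tested, 2.59% were called, 1.09% higher and 1.51% lower, so the 2.94% of tested segments that were called was close to the background. At an unadjusted p under 0.05 there were 3 of the 34 (Trac, Traj17 and Trav13-2), against 20.2% of all genes tested, the share to read beside each such count below. Likewise, list calls below are to be read beside 2.59% of all genes for edgeR and 9.33% of 14776 genes for DESeq2, a second tool. In 19 of the 34 the libraries of the genotypes did not overlap, which was 55.9% against 50.3% of all tested genes; 12 of the 19 were lower and 7 higher in the knockout. The median log2 fold change was -0.18 over the 34 genes and 0.02 over all genes tested. The plot of log2 fold changes in locus order shows all 34.

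**Figure D1:**
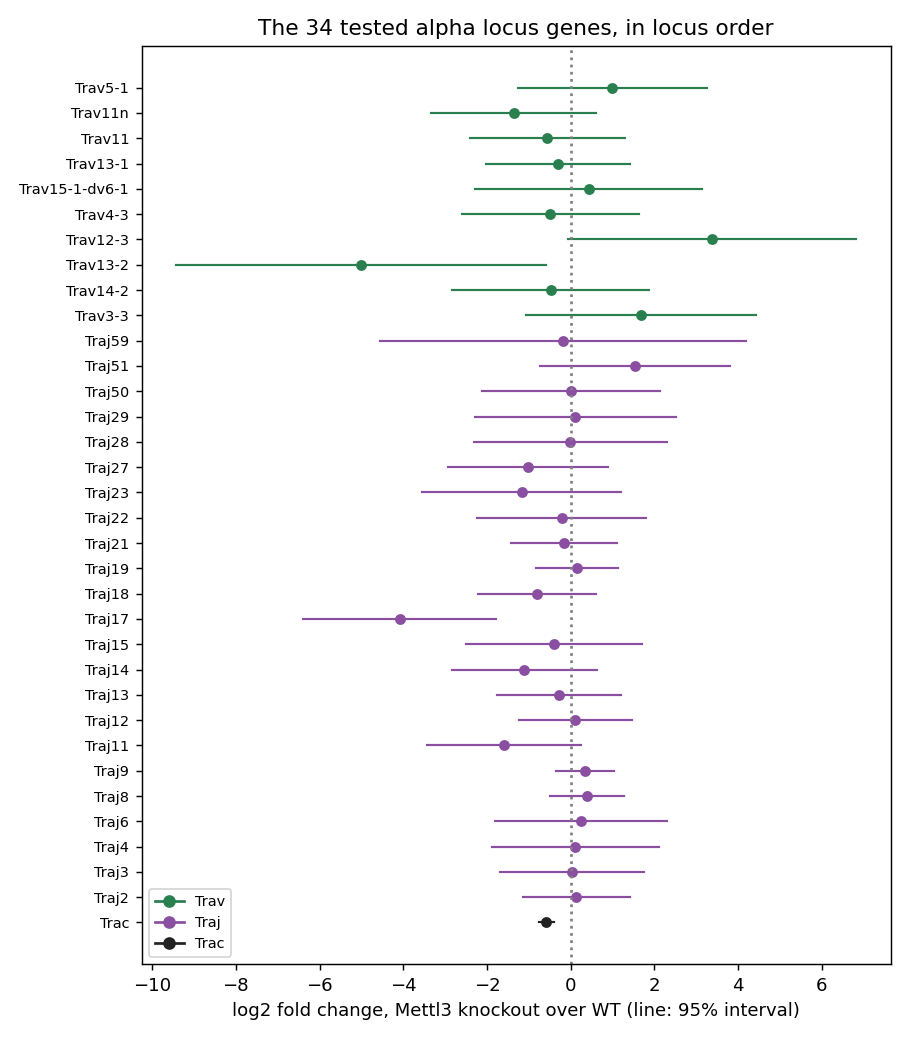
Log2 fold change, knockout over WT, of the 34 tested alpha locus genes in their order along the chromosome, with 95% intervals of the edgeR fit as lines; green is Trav, purple Traj, black Trac. The interval of Trac is narrow and below 0, those of Traj17 and Trav13-2 are wide and below 0, and the others include 0; Trav13-2 had 1 count in the knockout, so its fitted value is no measure of size.

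Trac, the constant gene shared by every alpha chain, was lower in the Mettl3 knockout. Trac (ENSMUSG00000076928.5, chr14:54220521-54224206, plus strand, 935 exon bases) had 64447 and 63060 counts in the WT libraries and 41477 and 39892 in the knockout. Its level was 2292 and 2510 CPM in WT, against 1612 and 1601 CPM in the knockout. Both knockout libraries lay below both WT libraries, with means of 1606 ± 8.09 against 2401 ± 154 CPM (SD, n = 2). The 95% interval of the log2 fold change, -0.58 (SE 0.07), ran from -0.755 to -0.405 (edgeR adjusted p = 0.0124), so the level was 1.49-fold lower in the knockout. The call was lost without knockout replicate 1 (edgeR adjusted p = 0.114) and without knockout replicate 2 (0.121), and it held without WT replicate 1 (0.0142) and without WT replicate 2 (0.0319). In bulk samples, fewer cells with a transcript and less transcript per cell cannot be told apart.

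The genes of the proteins that form the receptor with the alpha chain did not pass the test: 0 of 6 were called by edgeR, 3 had an unadjusted p under 0.05, and their median log2 fold change was 0.11. DESeq2 called Cd3d and Cd3g lower. Cd3g, a CD3 chain needed for surface assembly, was at 191.6 and 207.3 CPM in WT and 147.9 and 124.4 CPM in the knockout, with a log2 fold change of -0.55 (edgeR adjusted p = 0.0866). Cd3d, another CD3 chain, had a log2 fold change of -0.35 (edgeR adjusted p = 0.132), also with no overlap between the genotypes. Cd3e and Cd247, the remaining CD3 chain and the zeta chain, had log2 fold changes of 0.16 and 0.27 (edgeR adjusted p = 0.549 and 0.217). Cd3e overlapped between the genotypes, and Cd247 was higher in both knockout libraries. Trbc1 and Trbc2, the constant genes of the beta chain, had log2 fold changes of 0.09 and 0.13 (edgeR adjusted p = 0.604 and 0.377), each higher in both knockout libraries. They are close copies of each other, so the split of counts between them is uncertain and their sum is used here. Each library held 1.22 and 1.34 Trac counts per Trbc1 and Trbc2 count in WT, and 0.790 and 0.791 in the knockout. That ratio is free of scaling between libraries, and the knockout libraries were the lower ones; the exact permutation test gave p = 0.333, the smallest that 2 libraries against 2 allow.

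**Figure D2:**
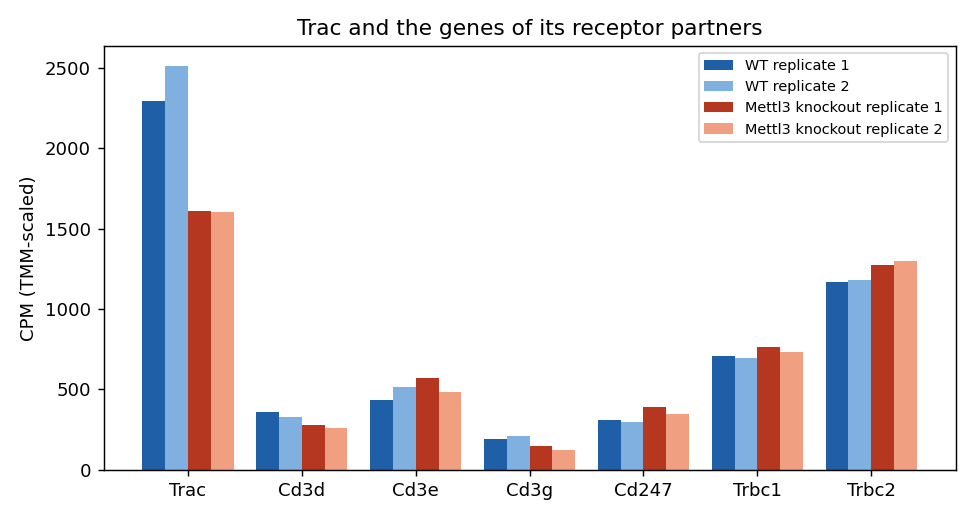
CPM (TMM-scaled, vertical axis from 0) of Trac and of the 6 genes of its receptor partners, with 1 bar per library, blue for WT and red for the Mettl3 knockout. The Trac bars of the knockout stand at 1601 and 1612 CPM and those of WT at 2292 and 2510 CPM, while the Trbc1 and Trbc2 bars are slightly taller in the knockout.

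Variable segments gave few counts beside Trac. Summed over all 128 Trav, the libraries held 437 and 240 counts in WT and 240 and 220 in the knockout, or 6.78 and 3.81 per 1000 Trac counts in WT and 5.79 and 5.51 in the knockout. WT replicate 1 stood above the other 3 libraries in total, and it also had counts on the most Trav, 63, against 42, 47 and 29. Per kilobase of exon, Trav13-1 and Trav11, the variable segments with the highest mean levels, reached means of 3.94 and 3.46 CPM per kb, against 2143 CPM per kb for Trac. How the submitters' counting treated a read that spans a variable, a joining and a constant segment, or that matches several genes equally well, is not given in the sources used here, and its part in these levels was not tested.

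Trav11 was among the leading variable segments of every library, and did not stand alone. Trav11 (ENSMUSG00000096615.1, chr14:53519303-53519859) had 51 and 25 counts in WT and 20 and 29 in the knockout, and ranked 1st and 2nd of the Trav in WT and 3rd and 2nd in the knockout, both by count and per kilobase. It held 11.7% of Trav counts in WT replicate 1 (95% Wilson interval 8.99 to 15.0) and 10.4% in WT replicate 2 (7.16 to 14.9). It held 8.33% in knockout replicate 1 (5.46 to 12.5) and 13.2% in knockout replicate 2 (9.34 to 18.3). The genotypes overlapped, as did all 4 intervals; these intervals cover counting error alone, as reads without molecular identifiers are no independent molecules. The mean share differed by -0.286 percentage points, knockout minus WT (exact permutation test, p = 1, n = 2 libraries each). The log2 fold change of Trav11 was -0.56 (SE 0.80, 95% interval -2.41 to 1.30; edgeR adjusted p = 0.761), an interval too wide to show whether the genotypes differ.

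**Figure D3:**
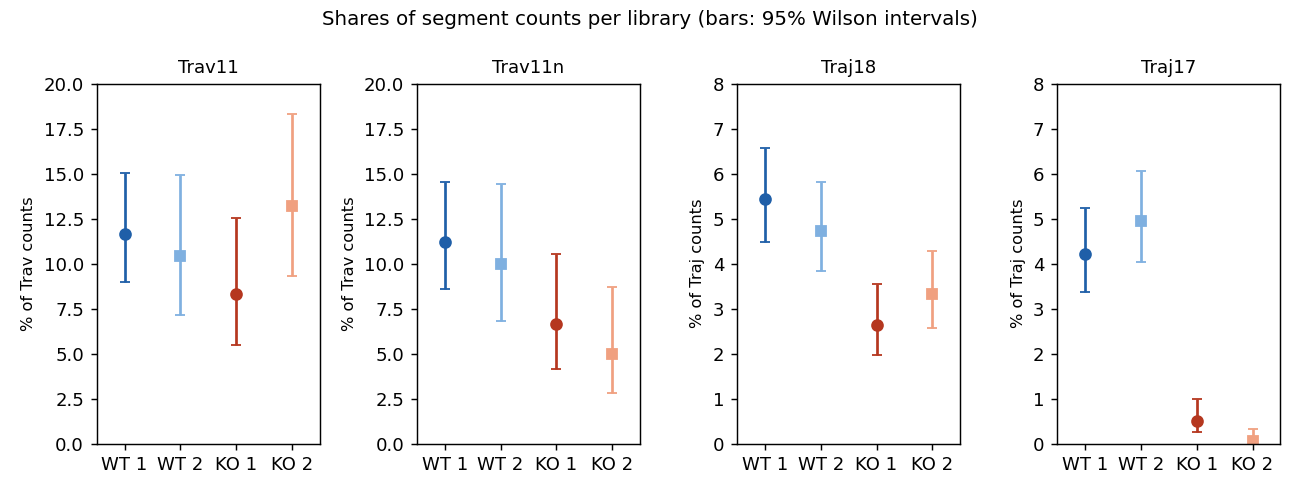
Share of Trav counts held by Trav11 and Trav11n (left pair) and share of Traj counts held by Traj18 and Traj17 (right pair) in each library, in percent, with 95% Wilson intervals; KO is the Mettl3 knockout. Trav11 overlaps between genotypes at 8.33% to 13.2%, Traj18 is at 4.73% and above in WT and at 3.32% and below in the knockout, and Traj17 is above 4% in WT and below 1% in the knockout.

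The Trav11 copies bear on these values. Trav11d (chr14:52824357-52824912) is identical to Trav11 over the 342 bases compared, so 0 of the 294 stretches of 50 bases in the Trav11 transcript occur in no other alpha locus segment. Trav11d had 1 count in 3 libraries and none in knockout replicate 2. The counts of Trav11 and Trav11d can therefore not be told apart from sequence alone. Trav11n (ENSMUSG00000106259.1), which the annotation calls a pseudogene, differs from Trav11 at 8 of 343 bases (97.7% identity). Counted from the first base of the Trav11 transcript, Trav11 first and Trav11n second, the differences are C10T, C33T, T105C, C138G, C201A, G217C, T240C and A266G, and C138G turns a tyrosine codon into a stop codon. Of the 294 stretches of 50 bases in Trav11n, 231 are unique to it among all annotated genes.

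Trav11n had nearly as many counts as Trav11 in WT. It had 49 and 24 counts in WT and 16 and 11 in the knockout, and ranked 2nd and 3rd of the Trav by count in WT and 5th and 8th in the knockout. Its share of Trav counts was 11.2% and 10% in WT and 6.67% and 5% in the knockout, with no overlap (exact permutation test, p = 0.333, n = 2 each, the smallest possible). Its log2 fold change was -1.35 (SE 0.86; edgeR adjusted p = 0.431), which did not pass. Added together, the 3 copies held 23.1% and 20.8% of Trav counts in WT and 15.4% and 18.2% in the knockout (difference -5.17 percentage points; exact permutation test, p = 0.333, n = 2 each). Adding Trav11n was chosen after seeing the data. The identical copies Trav11 and Trav11d alone held 11.9% and 10.8% in WT and 8.75% and 13.2% in the knockout, which overlap (difference -0.400 percentage points).

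Trav13-1 had more counts than Trav11 in every library but WT replicate 1. It had 44 and 33 counts in WT and 28 and 31 in the knockout, and ranked 3rd in WT replicate 1 and 1st in the others, level with Trav12-3 in knockout replicate 1. Its log2 fold change was -0.31 (SE 0.73; edgeR adjusted p = 0.869). Trav4-3 followed with 16 and 21 counts in WT and 17 and 8 in the knockout, and Trav14-2 had 14 and 11 in WT and 4 and 13 in the knockout, both with overlapping genotypes. Trav13-2 had 26 and 16 counts in WT and 1 and 0 in the knockout. Over the summed counts it was 40.0 times as high in WT (counting interval 6.79 to 1616), but its edgeR adjusted p of 0.195 did not pass. Trav12-3 went the other way, with 4 and 0 counts in WT and 28 and 14 in the knockout (log2 fold change 3.38, SE 1.48; edgeR adjusted p = 0.256). Trav13-2 (chr14:53634829-53635399) was tested only through WT and Trav12-3 (chr14:53621657-53622245) only through the knockout, so the filter itself required their levels to differ.

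**Figure D4:**
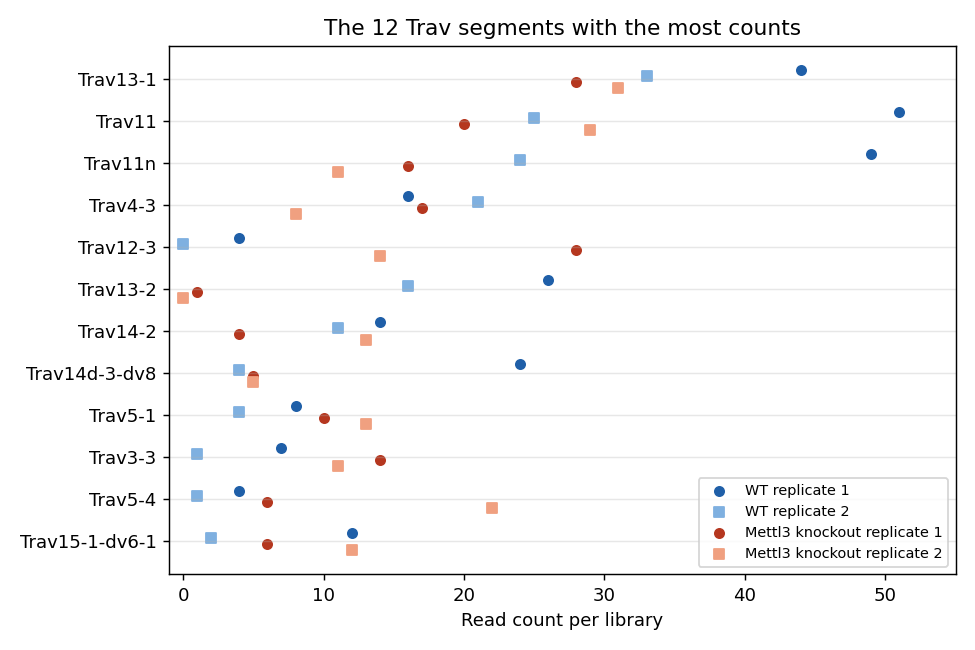
Read counts (horizontal axis) of the 12 Trav with the most counts over the 4 libraries, with circles for replicate 1 and squares for replicate 2, blue for WT and red for the Mettl3 knockout. Trav11, Trav11n and Trav13-1 reach 44 to 51 counts in WT replicate 1 and 11 to 33 in the other libraries, and Trav13-2 and Trav12-3 separate the genotypes in opposite directions.

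Among the other leading Trav, single libraries often stood apart. Trav14d-3-dv8 had 24 counts in WT replicate 1 against 4 or 5 in each of the other libraries, and Trav5-4 had 22 in knockout replicate 2 against 1 to 6 elsewhere. Trav15-1-dv6-1 had 12 and 2 counts in WT and 6 and 12 in the knockout. Trav5-1 had 8 and 4 counts in WT and 10 and 13 in the knockout, and Trav3-3 had 7 and 1 in WT and 14 and 11 in the knockout, each with no overlap but no call (log2 fold changes 0.995 and 1.68; edgeR adjusted p = 0.642 and 0.494). Both passed the filter only through the knockout, where they were high, so their lack of overlap was set by that filter. Trav1, which mucosal-associated invariant T (MAIT) cells pair with Traj33, had 3 counts in knockout replicate 1 and none elsewhere. The 55 Trav with neither a d nor an n in the number held 283 and 168 counts in WT and 185 and 182 in the knockout. The 39 d copies held 57 and 14 counts in WT and 20 and 19 in the knockout, and the 34 n copies held 97 and 58 in WT against 35 and 19. The n copies thus had fewer counts in both knockout libraries than in either WT library, and Trav11n gave 49 of the 97 in WT replicate 1 and 11 of the 19 in knockout replicate 2.

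Many Trav shared their sequence with other annotated genes. Of the 128, 42 have no stretch of 50 bases that is unique among all annotated genes, and 28 of these 42 had no count. Trav11 was the only one of the 42 with 10 or more counts. Of the 86 with some unique stretch, 22 had no count. The 3 Trav that overlap an antisense gene (Trav13d-3, Trav13n-3 and Trav22) are uncertain, because the libraries do not mark strand.

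Joining segments gave more counts than variable segments, and their sum overlapped between the genotypes. The 60 Traj held 1804 and 1776 counts in WT and 1589 and 1718 in the knockout, or 64.2 and 70.7 CPM in WT and 61.8 and 68.9 CPM in the knockout, which overlap. Per 1000 Trac counts they stood at 27.99 and 28.16 in WT and at 38.3 and 43.1 in the knockout, both above WT. Of the 23 tested Traj, 11 had a positive log2 fold change and 12 a negative one (median -0.01). Among them 0 were called by edgeR and 1 (Traj17) had an unadjusted p under 0.05. In 12 of the 23 (52.2%) the genotypes did not overlap, which was close to the 50.3% of all tested genes.

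Traj18 was well counted but was not the leading joining segment. Traj18 (ENSMUSG00000076911.1, chr14:54200777-54200842, 66 bases, 19.74 kb before Trac) had 98 and 84 counts in WT and 42 and 57 in the knockout, or 3.49 and 3.34 CPM against 1.63 and 2.29 CPM. It ranked 5th and 6th of the Traj by count in WT and 8th and 7th in the knockout, and between 7th and 9th per kilobase in all 4 libraries. Its share of Traj counts was 5.43% (95% Wilson interval 4.48 to 6.58) and 4.73% (3.84 to 5.82) in WT, and 2.64% (1.96 to 3.55) and 3.32% (2.57 to 4.27) in the knockout. Both knockout shares lay below both WT shares, by 2.10 percentage points in the means (5.08 ± 0.497 against 2.98 ± 0.477, SD, n = 2; exact permutation test, p = 0.333, the smallest possible). With a log2 fold change of -0.80 (SE 0.60) and a 95% interval from -2.21 to 0.60, Traj18 was not called (edgeR adjusted p = 0.513). Per 1000 Trac counts Traj18 stood at 1.52 and 1.33 in WT and at 1.01 and 1.43 in the knockout, and there the genotypes overlapped.

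The neighbours of Traj18 ranged from among the highest to 0. Traj19, 0.39 kb upstream, had 214 and 221 counts in WT and 170 and 290 in the knockout, above Traj18 in every library although it lacks the motif of a functional joining segment. Traj20 had 4 counts in WT replicate 1 and none elsewhere, while Traj21 had 87 and 111 counts in WT and 89 and 79 in the knockout. On the other side, Traj16 had 0 and 2 counts in WT and 0 and 4 in the knockout, and Traj15 had 13 and 12 in WT and 11 and 7 in the knockout. Traj19 and Traj21 overlapped between genotypes, with log2 fold changes of 0.15 and -0.17 (edgeR adjusted p = 0.891 and 0.909).

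Traj17, the next segment after Traj18 about 1 kb from it, showed the largest difference among the Traj tested. It had 76 and 88 counts in WT and 8 and 1 in the knockout, or 2.70 and 3.503 CPM against 0.311 and 0.0401 CPM. Its share of Traj counts was 4.21% and 4.95% in WT and 0.503% and 0.0582% in the knockout. The 95% Wilson intervals of the WT libraries (from 3.38% up) and those of the knockout (up to 0.990%) did not meet, but they cover counting error alone. Over libraries, the exact permutation test of this share gave p = 0.333 (n = 2 each), the smallest possible. With a log2 fold change of -4.08 (SE 1.02) and a 95% interval from -6.39 to -1.77, Traj17 was not called by edgeR (adjusted p = 0.0713). DESeq2 called it (log2 fold change -4.13, adjusted p = 0.0227), and DESeq2 called 9.33% of all 14776 genes that it tested. Traj17 was tested only because of its WT level, so the filter itself required its level to differ. Traj18 lay below WT in the same knockout libraries by less. Traj19, on the other side of Traj18, lay below both WT libraries in knockout replicate 1 and above both in knockout replicate 2.

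Traj9 had the most counts of any joining segment in all 4 libraries. It had 334 and 364 counts in WT and 435 and 407 in the knockout, which was 18.5% and 20.5% of Traj counts in WT and 27.4% and 23.7% in the knockout. Traj8, a 37-base segment that the annotation calls a pseudogene and that follows Traj9 at chr14:54209918-54209954, had 187 and 245 counts in WT and 264 and 275 in the knockout. Both were higher in both knockout libraries, but neither passed the test (log2 fold changes 0.34 and 0.39, SE 0.29 and 0.38; edgeR adjusted p = 0.583 and 0.627). Together they held 28.9% and 34.3% of Traj counts in WT and 44.0% and 39.7% in the knockout (exact permutation test, p = 0.333, n = 2 each). Per kilobase they stood at means of 256.9 and 254.7 CPM per kb, against 142.0 for Traj19 and 40.7 for Traj18. Traj2 had 175 and 76 counts in WT and 162 and 100 in the knockout, and Traj12 had 89 and 75 in WT against 63 and 105; both overlapped. Traj13 had 77 and 52 counts in WT against 52 and 49 in the knockout. Traj14, a pseudogene, had 64 and 47 against 31 and 18, and Traj22 had 20 and 63 against 25 and 43. Of these 3, Traj14 had the largest log2 fold change, -1.10 (SE 0.74, edgeR adjusted p = 0.462). In CPM, the genotypes did not overlap for Traj13 and Traj14, both lower in the knockout, and overlapped for Traj22.

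**Figure D5:**
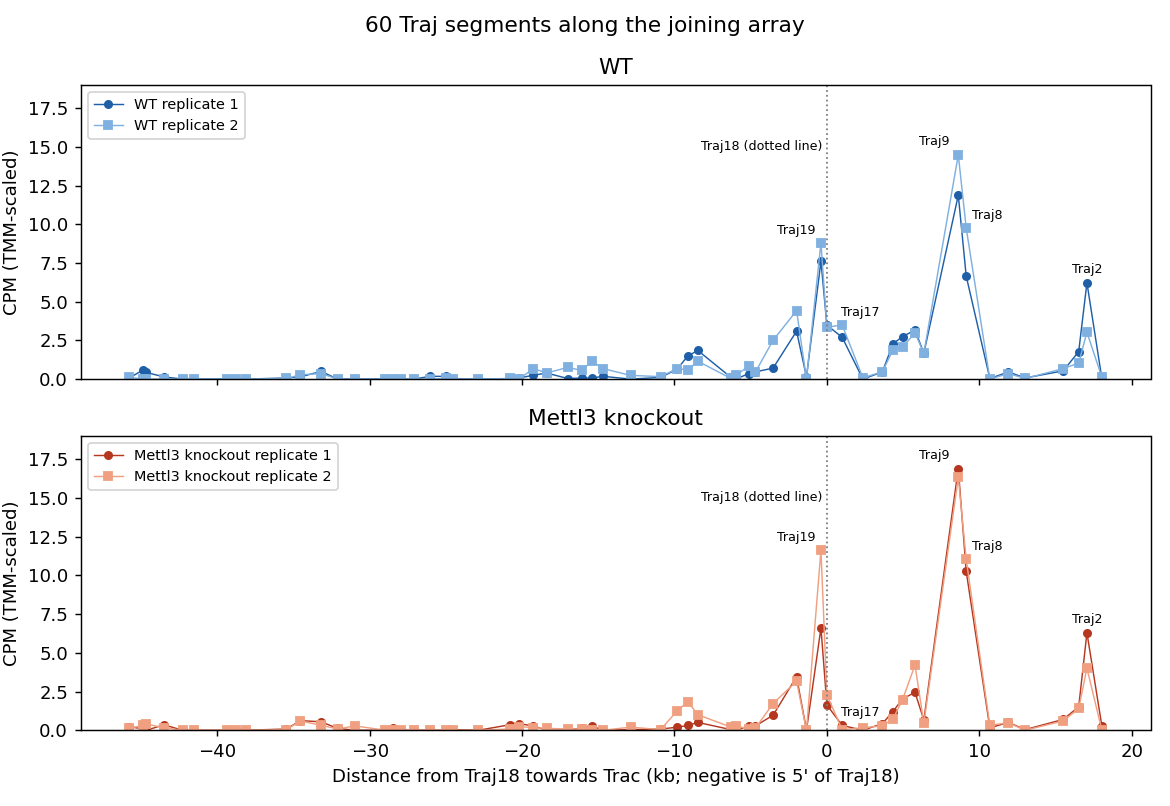
CPM (TMM-scaled) of the 60 Traj by distance from Traj18 in kb, positive towards Trac, with WT libraries above in blue and Mettl3 knockout libraries below in red; the lines only join neighbouring segments. Traj9 is highest in all 4 libraries, and peaks at Traj19 and at Traj9 with Traj8 recur in each. Traj2 stands above Traj21, Traj18 and Traj17 in every library but WT replicate 2, where it is below them. Traj17 is near 3 CPM in WT and near 0 in the knockout.

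Counts were gathered at the end of the joining array that is nearer to Trac. The 16 Traj between Traj18 and Trac held 63.4% and 59.6% of Traj counts in WT and 70.8% and 60.9% in the knockout, and the 43 Traj upstream of Traj18 held 31.2% and 35.6% in WT and 26.6% and 35.7% in the knockout. Both shares overlapped between genotypes. All 16 downstream Traj had a count in some library and 12 were tested (median log2 fold change 0.07), whereas 8 of the 43 upstream Traj had none and 10 were tested (median -0.09). Traj without the FGXG motif, with tryptophan also accepted in its first place, were 15 of 60, and 8 of them are annotated as pseudogenes. They held 32.4% and 32.6% of Traj counts in WT and 34.05% and 40.05% in the knockout. Traj33, the MAIT joining segment, varied from 0 to 29 counts, at 2 and 29 in WT and 7 and 0 in the knockout. Traj50, which occurs in another NKT receptor, had 14 and 9 counts in WT and 14 and 8 in the knockout (log2 fold change 0.01, edgeR adjusted p = 0.998).

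The delta chain genes lie within the alpha locus, and joining of the alpha gene deletes most of them from that allele. Of 11 such genes 4 had no count, and Trdc, the delta constant gene, was the only one tested. It stood at 4.20 and 4.66 CPM in WT and 12.5 and 9.55 CPM in the knockout, higher in both knockout libraries but not called (log2 fold change 1.32, SE 0.41; edgeR adjusted p = 0.138). The genes of V(D)J recombination gave 0 edgeR calls of 12 tested, with 3 at an unadjusted p under 0.05 and a median log2 fold change of 0.15. DESeq2 called Rag1 and Dntt higher. Rag1, a subunit of the recombinase, was at 49.2 and 59.9 CPM in WT and 114.0 and 90.3 CPM in the knockout (log2 fold change 0.91, edgeR adjusted p = 0.0556). Dntt, which adds bases at the joins, had a log2 fold change of 0.66 (edgeR adjusted p = 0.117), Rag2, the other subunit, 0.51 (0.519), and Xrcc5, an end-joining protein, -0.37 (0.223).

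Among 12 regulators of the alpha locus or of its rearrangement, 1 rose and 0 fell by edgeR, with 5 at an unadjusted p under 0.05 and a median log2 fold change of 0.18. DESeq2 called 2 higher, Lef1 and Runx1. Lef1, a factor that binds the alpha enhancer, was at 416.7 and 384.7 CPM in WT and 690.1 and 660.2 CPM in the knockout (log2 fold change 0.75, SE 0.09; edgeR adjusted p = 0.0112). Rad21, a cohesin subunit, and Runx1, which also binds the enhancer, had log2 fold changes of 0.57 and 0.43 (edgeR adjusted p = 0.132 and 0.136).

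Markers of the sorted cells and of others were set beside these results. The 11 iNKT markers were counted in every library and summed to 3835 and 4499 CPM in WT and 3853 and 3874 CPM in the knockout. Of 10 tested, edgeR called Slamf6 and Cd5 higher and Cd44 and Klrb1c lower, with 6 at an unadjusted p under 0.05. DESeq2 called 3 higher and 2 lower. Markers of CD4+CD8+ thymocytes, the stage that rearranges the alpha gene, summed to 362.3 and 463.1 CPM in WT and 667.3 and 642.3 CPM in the knockout, and edgeR called 0 of 9 (4 at an unadjusted p under 0.05) while DESeq2 called 4 higher. Rag1, Rag2 and Dntt are among them. Markers of conventional single-positive T cells, which use diverse segments, summed to 2306 and 2298 CPM in WT and 2824 and 2931 CPM in the knockout, and 4 of 8 tested were higher (S1pr1, Ccr7, Igfbp4 and Lef1), with Dapl1 at 0 in 3 libraries. Il7r, of the same list, had a log2 fold change of -0.34 (edgeR adjusted p = 0.0692), and DESeq2 called it lower. Myeloid markers summed to 75.8 and 99.1 CPM in WT and 387.0 and 433.1 CPM in the knockout, and of 8 tested Lyz2 and Csf1r were higher and Fcer1g lower, with Itgam at 0 in WT; DESeq2 called Lyz2 and Fcer1g. Most of that sum was Lyz2, without which it was 46.2 and 51.6 CPM in WT and 62.3 and 47.5 CPM in the knockout, which overlap. That overlap combines opposite directions. Csf1r (0.854 and 0 CPM in WT, 29.6 and 15.6 in the knockout), Cd68, Itgam and Adgre1 were higher in both knockout libraries. Fcer1g (27.9 and 32.4 CPM in WT, 8.67 and 9.75 in the knockout) and Cst3 were lower in both, and Tyrobp, Itgax and C1qa overlapped. The B cell markers (134.2 to 175.3 CPM, 0 of 6 called by either tool, 2 at an unadjusted p under 0.05, Pax5 at 0 in every library) overlapped between genotypes. The γδ T cell markers summed to 1225 and 1382 CPM in WT and 1184 and 1221 CPM in the knockout, lower in both knockout libraries. Most of that sum was Tcrg-C2 (457.6 and 538.5 CPM in WT, 399.9 and 434.5 in the knockout) and Tcrg-C4 (645.6 and 742.0 against 696.4 and 683.9). Of 5 tested, 0 were called by either tool and 2 had an unadjusted p under 0.05, in opposite directions. These were Trdc, higher in the knockout (log2 fold change 1.32), and Sox13, lower (-1.36, edgeR adjusted p = 0.138 and 0.178). The part of these cells in the values of Trac, Traj17, Trdc and the recombination genes was not tested.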

How the data were processed

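The 4 RNA libraries of sorted iNKT cells were grouped by the sample titles. Their deposited values are raw read counts for each gene, with 1 column per library and replicates not pooled. Build mm10 and 4 tools are named in the submitters' processing notes: DESeq2 1.18.1, HTSeq 0.6.1, STAR 2.6.0a and FastQC 0.11.5. Not given in the sources used here are their roles, the annotation release, the strand setting and the handling of reads that match several genes. Of 53715 gene IDs, 53620 matched GENCODE M21 (GRCm38), and all 189 alpha locus genes matched with their version; positions, exon lengths and sequences come from it. A unique stretch is one of 50 bases that no transcript of any other gene in GENCODE M21 holds, on either strand.

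Counts were filtered by edgeR's filterByExpr, which needs about 0.390 CPM in 2 libraries, and scaled by TMM (factors 0.994, 0.970, 1.01 and 1.02). Genotypes were compared on all 4 libraries with edgeR 4.0.16 in R 4.3.3 (glmQLFit, legacy=FALSE, robust=TRUE, and glmQLFTest, 2-sided, no covariate, 2 residual degrees of freedom), with Benjamini-Hochberg adjustment over 14185 genes and calls at an adjusted p under 0.05. The procedure was tested on simulated data. Shares were compared by the 2-sided exact permutation test over libraries (scipy 1.17.1), with 95% Wilson intervals; the interval of the Trav13-2 ratio comes from the exact binomial interval of its summed counts. Alternatives were DESeq2 1.42.0, other scalings and filters, a replicate block, leaving out each library, shares per kilobase, and adding Trav11 copies.

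The genes and lists were chosen with earlier results of these data known. Named were Trav11 and its copies, Traj18, Trac, Trav1, Traj33, Traj50, any called segment, the 10 other Trav and 10 other Traj with the highest mean CPM, 3 Traj on either side of Traj18, and up to 4 genes with the smallest p from each other list (all of lists of 6 or fewer). The values of 1 gene that this rule names are not reported here. Trav13d-3, Trav13n-3 and Trav22 were named outside this rule, as were the genes whose direction depended on the processing and the marker genes given with their list. Replicate numbers do not pair the libraries per the labels: the correlation of the replicate differences of the genotypes over tested genes was -0.024.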

Additional observations from a re-analysis of the deposited data

How the results depend on the processing

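Trac was lower under all 10 alternatives and was called in 7 of them; its log2 fold change ran from -0.655 to -0.517 without 1 library each. With the replicate block it was -0.58 (edgeR adjusted p = 0.0971), and no segment was called lower. Without 1 library each, 0 to 1 segments were called lower, the 0 being without knockout replicate 1 and without knockout replicate 2, and DESeq2 called 2 (Trac and Traj17). No segment was called higher in any fit. The difference in the Trav11 share, -0.286 percentage points, ran from -2.71 to 2.14 without 1 library each, so it has no settled direction; added to Trav11d and Trav11n (an alternative chosen after seeing the data) it was -5.17. The Traj18 share was lower in every alternative, at -2.45 to -1.75 without 1 library each. Traj28, at -0.005, was 0.0508 with DESeq2, 0.0473 with total-count scaling and 0.00052 with median-ratio scaling. Without 1 library each, the log2 fold change changed sign for Traj2 (-0.27 to 0.76), Traj3 (-0.29 to 0.48), Traj4 (-0.065 to 0.28), Traj12 (-0.33 to 0.45), Traj19 (-0.31 to 0.51), Traj21 (-0.42 to 0.10), Traj22 (-0.91 to 0.91), Traj28 (-1.77 to 0.82), Traj29 (-1.74 to 0.91), Traj50 (-0.42 to 0.33), Traj59 (-1.10 to 0.82), Trav14-2 (-1.57 to 0.15) and Trav15-1-dv6-1 (-0.26 to 2.08); the cause was not tested. At 5 CPM or more in 2 libraries 5 segments were tested, and Trav11 and Traj18 gave no value. The Trav shares rest on 220 to 437 counts a library, which limits them to the intervals given.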
